A study of Mus musculus with 12 samples.

Results

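The comparison is the last step of mouse granulopoiesis, from the myelocyte to the granulocyte, as read in whole cell RNA by TaqMan low-density array (TLDA) RT-qPCR. Its members are the miRNAs whose assay could be named and whose cycle threshold (CT) was under 30 in the myelocyte or the granulocyte sample. They number 120, out of 269 named assays and 593 assays in all. The CT is the cycle at which a reaction crosses a fixed threshold, so an early CT means abundant template, and 1 cycle equals 2-fold if each cycle doubles the product.

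The study profiled miRNAs at 4 stages: LSK cells, which are lineage-negative Sca1+ cKit+ progenitors including the stem cells, then promyelocytes, myelocytes and granulocytes. Whole cell, nuclear and cytoplasmic RNA were read at each stage. All cells came from the bone marrow of C57BL/6 mice and were sorted by flow cytometry, the myelocytes and granulocytes on Gr-1, cKit, CD34 and CD16/32 after exclusion of cells that carry lineage markers. No genotype or treatment distinguishes the groups, and the age of the animals and any pooling of them are not given in the sources used here. Each of the 12 samples was read once, from 100 ng of RNA per the labels, so no test between stages was possible and no value below has a replicate error.

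Granulopoiesis takes a dividing progenitor through the promyelocyte, which makes the primary granules, and the myelocyte, the last stage able to divide, to the mature granulocyte with its segmented nucleus. A mature miRNA is cut from one arm of a hairpin and loaded into Argonaute, and the seed, its bases 2 to 8, pairs with target mRNAs, so miRNAs with 1 seed can share targets. In the myeloid lineage miR-223 is the best known granulocytic miRNA, while miR-146a and miR-155 are known for restraining and promoting inflammatory signalling.

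Of the 593 assays 285 gave a CT under 40 in myelocytes and 288 in granulocytes, 40 being the value of an undetermined reaction. Log2 changes are granulocyte over myelocyte, taken as the CT difference minus 0.44 cycles, the mean CT difference of the last 3 assays of card B. These 3 assays differed between the samples by 0.11, 0.56 and 0.65 cycles. Of the members, 85 were on card A and 35 on card B, and 10 assays without a name also had a CT under 30, with changes between -0.62 and 0.92. Since the labels give an equal mass of RNA for each sample, fewer cells of a type and less of a miRNA per cell cannot be told apart in the whole cell values. The study's text describes the nuclear and cytoplasmic CTs as read per cell equivalent, so the input behind those is uncertain here, and they are used only after centring or as CTs side by side.

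Mature sequences from RefSeq (GRCm38.p6) were matched to 92 of the 120 members. Those shown first belong to miRNAs at least 2-fold lower or higher in granulocytes, to both arms of the miR-139 hairpin and to miR-223, the miRNA of lowest CT. Capitals mark the seed.

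miR-31: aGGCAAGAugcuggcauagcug
miR-494: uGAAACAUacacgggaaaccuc
miR-146a: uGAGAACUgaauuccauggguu
miR-155: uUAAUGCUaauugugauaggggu
miR-342-3p: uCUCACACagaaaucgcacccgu
miR-139-5p: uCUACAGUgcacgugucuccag
miR-139-3p: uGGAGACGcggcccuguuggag
miR-365: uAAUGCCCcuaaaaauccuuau
miR-10b: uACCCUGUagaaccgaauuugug
miR-223: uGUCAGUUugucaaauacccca

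Both arms of the miR-139 hairpin are shown because their seeds, and so their possible targets, differ. The next 6 sequences are the let-7 members, which share the seed GAGGUAG and differ outside it by few bases, so whether an assay also read a sister miRNA matters and was not tested.

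let-7a: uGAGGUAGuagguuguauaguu
let-7c: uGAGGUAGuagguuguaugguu
let-7d: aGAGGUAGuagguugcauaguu
let-7e: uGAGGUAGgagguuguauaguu
let-7g: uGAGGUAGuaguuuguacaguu
let-7i: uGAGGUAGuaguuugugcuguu

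The last 6 carry the seed AAAGUGC and come from the miR-17-92, miR-106a-363 and miR-106b-25 clusters.

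miR-17: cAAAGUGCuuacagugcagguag
miR-20a: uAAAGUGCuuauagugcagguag
miR-106a: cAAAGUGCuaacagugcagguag
miR-20b: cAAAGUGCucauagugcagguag
miR-93: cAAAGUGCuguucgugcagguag
miR-106b: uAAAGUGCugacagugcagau

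Most members had similar levels at both stages: 99 of 120 (82.5%) were within 2-fold, and the median log2 change was 0.07 with quartiles of -0.36 and 0.63. In all, 13 miRNAs were at least 2-fold higher and 8 at least 2-fold lower in granulocytes. That is 10.8% and 6.67% of the named assays under a CT of 30 in either sample, and 10% and 6.15% of all 130 such assays. The CT limit itself shaped these counts, because 16 members were under 30 in granulocytes alone and 4 in myelocytes alone, and for such members the limit fixed the order of the 2 CTs. Among the 100 members under 30 in both samples, 4 were higher and 5 lower by 2-fold, so 9 of the 13 higher and 3 of the 8 lower miRNAs entered through 1 sample.

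The count also moved with the scaling constant. Without scaling 34 miRNAs were at least 2-fold higher and 5 lower, and the median change was 0.51. Under every scaling run, 9 miRNAs stayed at least 2-fold higher (miR-466d-3p, miR-467c, miR-467a, miR-297a*, miR-699, miR-139-3p, miR-135b, miR-365 and miR-28). Likewise 5 stayed at least 2-fold lower (miR-31, miR-494, miR-146a, miR-155 and miR-805). Of all these, only miR-699, miR-135b, miR-146a and miR-805 were under 30 in both samples. For the others the CT limit fixed the order of the CTs, whatever the scaling. Just inside the 2-fold limit lay miR-574-3p at 1.06, miR-10b at 1.07 and miR-706 at -1.15. Just outside it were miR-322* at 0.99, miR-22 at 0.96 and miR-21 at -0.98. At the CT limit the members of highest CT were miR-503* (29.97 in granulocytes) and miR-425* (29.98), and miR-674* (30.02) and miR-203 (30.10) fell just outside.

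**Figure D1:**
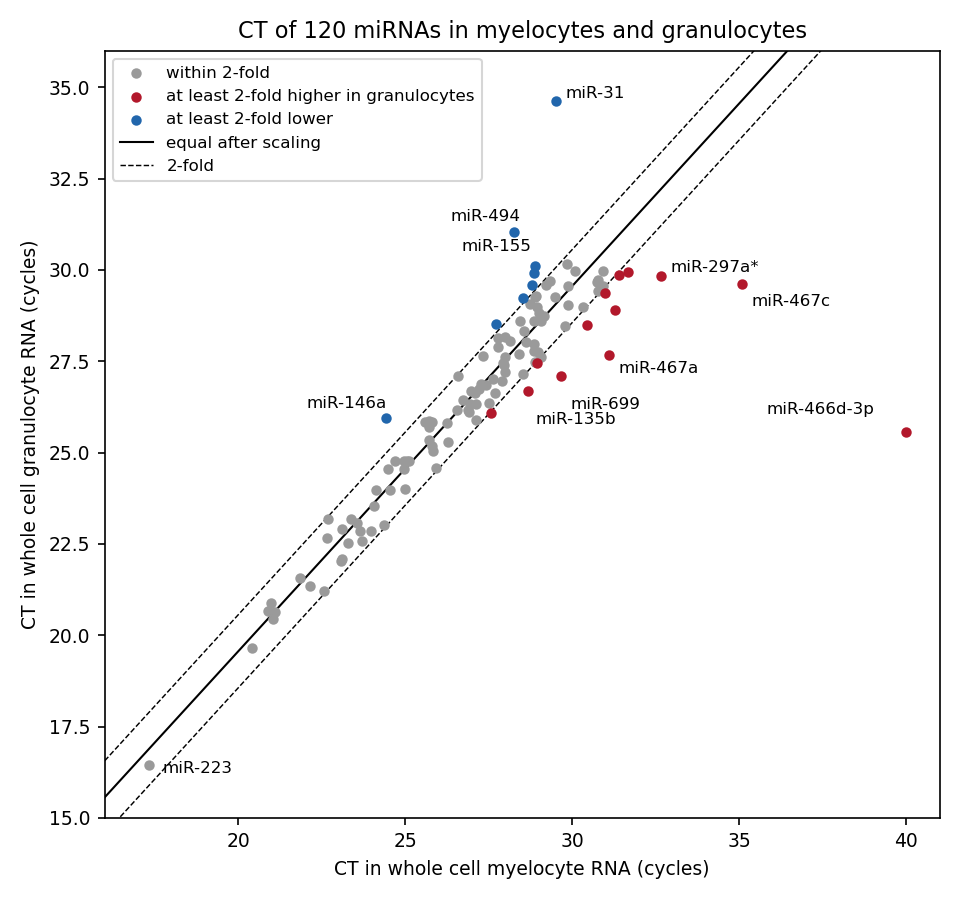
CT of each of the 120 miRNAs in the whole cell myelocyte sample (horizontal axis, cycles) against the granulocyte sample (vertical axis, cycles), 1 point per miRNA. The solid line marks equal level after scaling and the dashed lines 2-fold; 99 points lie between the dashed lines, 13 below them (red) and 8 above (blue), with miR-466d-3p at a CT of 40 in myelocytes.

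The assays of earliest CT were nearly the same at both stages. miR-223 had the lowest CT in each sample, 17.33 in myelocytes and 16.43 in granulocytes, a log2 change of 0.46. miR-16, a miRNA known for limiting cell cycle genes, followed with 20.41 and 19.64 and a change of 0.32. Both were thus higher in granulocytes by less than 2-fold. The other assays among the 5 lowest in myelocytes were miR-19b (20.87), miR-720 (20.97) and miR-709 (21.03), and those in granulocytes were miR-709 (20.43), miR-142-3p (20.63) and miR-19b (20.65). Assays can differ in efficiency, so this order is one of CT and not of miRNA amounts.

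By mean CT the members fell into 3 classes. Of the 31 members with a mean CT under 25, none was past 2-fold, and their changes ran from -0.94 to 0.91. Of the 38 with a mean CT from 25 to 28, 2 were higher and 1 lower. Of the 51 with a mean CT of 28 or more, 11 were higher and 7 lower, but this class holds all 20 members that met the CT limit in 1 sample only, for which the limit fixed the order of the CTs. Among its 31 members under 30 in both samples, 2 were higher and 4 lower. The median size of the change, regardless of sign, was 0.32 and 0.36 on the log2 scale in the first 2 classes and 0.62 in those 31. The lowest mean CT of any miRNA past 2-fold was that of miR-146a.

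**Figure D2:**
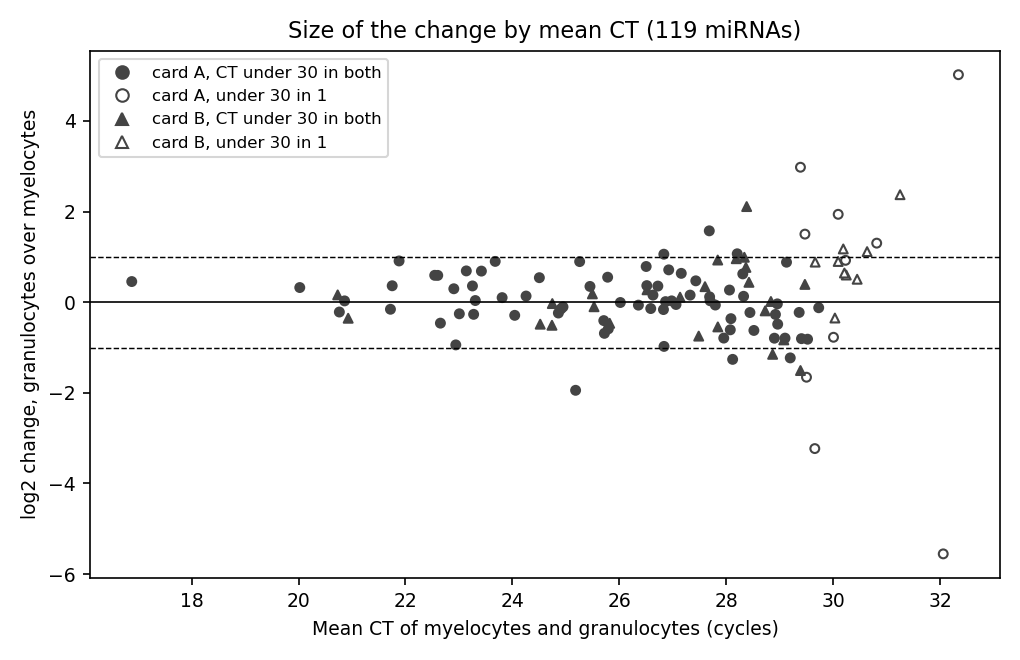
Log2 change from myelocytes to granulocytes (vertical axis) against the mean CT of both samples (horizontal axis, cycles) for 119 miRNAs, leaving out miR-466d-3p, which was undetermined in myelocytes. Circles are card A and triangles card B, open symbols had a CT under 30 in 1 sample only, and the dashed lines mark 2-fold; no point with a mean CT under 25 lies beyond them.

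The group with the highest values was that of the Sfmbt2 intron miRNAs. These are the miR-297, miR-466, miR-467 and miR-669 families, a large rodent array of related hairpins inside an intron of the Polycomb gene Sfmbt2; RefSeq places 71 Mir genes within the interval of Sfmbt2. Of 12 miRNAs listed, 11 were named and 6 were members, and 5 of the 6 were at least 2-fold higher. These 5 met the CT limit in granulocytes alone, so the count and the median log2 change of 2.68 (0.07 for all members) are in part set by the limit. The one member under 30 in both samples, miR-467a*, changed by 0.77.

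miR-467a had a CT of 31.09 in myelocytes and 27.68 in granulocytes, a log2 change of 2.98. Its opposite arm, miR-467a*, had a CT of 28.97 and 27.76, a change of 0.77. The arms thus differed in size but not in direction. miR-467c was at 35.07 and 29.61, a change of 5.02. miR-297a* was at 32.65 and 29.84, a change of 2.37. miR-467b* was at 31.41 and 29.85, a change of 1.12, which went under 2-fold when scaled on either of 2 control assays alone (0.996 and 0.91).

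miR-466d-3p was undetermined in myelocytes, and was the only member undetermined in either sample. Its CT in granulocytes was 25.56, so its log2 change was 14.00 with the undetermined reaction set at 40 and 9.0 with it at 35. This miRNA was also undetermined in the cytoplasmic and nuclear samples of both stages, so the value rests on 1 reaction of the whole cell granulocyte sample.

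Since 5 of these 6 were under the CT limit in granulocytes alone, the named list was also read without the limit. Of the 11 named miRNAs, 10 had a lower CT in granulocytes than in myelocytes, none a higher CT and 1, miR-297b-5p, was undetermined in both. A lower CT in granulocytes was also found in 92 of the 120 members (76.7%). After scaling the same count of 10 lay above 0, against 66 of the 120 members. The number detected was 7 in myelocytes and 10 in granulocytes. The members left out by the limit included miR-467d (34.67 and 32.81), miR-467e (34.71 and 31.56), miR-467e* (40 and 33.50) and miR-669a (40 and 34.15), all late signals. The families are close in sequence, and whether 1 assay read several of them was not tested.

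The cytoplasmic CTs, which served to name assays but not in the CT limit, had the same order of stages for most of this group. In cytoplasmic RNA the myelocyte and granulocyte CTs were 31.69 and 28.07 for miR-467a, and 30.58 and 28.27 for miR-467a*. miR-467c was at 34.49 and 30.13, miR-297a* at 34.20 and 30.25, and miR-467b* at 32.81 and 30.21. Centred on the median of the members under 30 in both cytoplasmic samples, these 5 changes were between 2.20 and 4.24 on the log2 scale. Of the 11 named miRNAs 9 were detected in cytoplasmic RNA of either stage, and all 9 had the lower CT in granulocytes, as had 68 of the 119 members detected (57.1%). In nuclear RNA, where 94.9% of the 117 members detected had the lower CT in granulocytes, the group was divided. After centring on the nuclear median of 1.30 cycles, miR-467a lay at 2.89 and miR-467c at 0.11, while miR-467a* (-0.11), miR-297a* (-0.47) and miR-467b* (-0.74) lay below 0.

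Along the 4 whole cell stages the members of this group differed. miR-467a* had CTs of 31.40, 29.20, 28.97 and 27.76 and miR-467b* of 33.63, 31.63, 31.41 and 29.85, earlier at every stage. LSK cells also gave a signal for miR-466d-3p, at 27.55, whereas the promyelocyte reaction was undetermined like that of myelocytes. miR-467a had a CT of 31.84 in LSK cells and 29.89 in promyelocytes before the 31.09 of myelocytes, and miR-467c had 33.65 and 31.85 before its 35.07. The myelocyte sample therefore had a higher CT than the promyelocyte sample for both, and the same held for miR-297a*. The change from promyelocytes to myelocytes was -1.19 for miR-467a, -3.20 for miR-467c and -1.27 for miR-297a*; it shares the myelocyte sample with the last step, and a single high CT there would enlarge both.

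**Figure D3:**
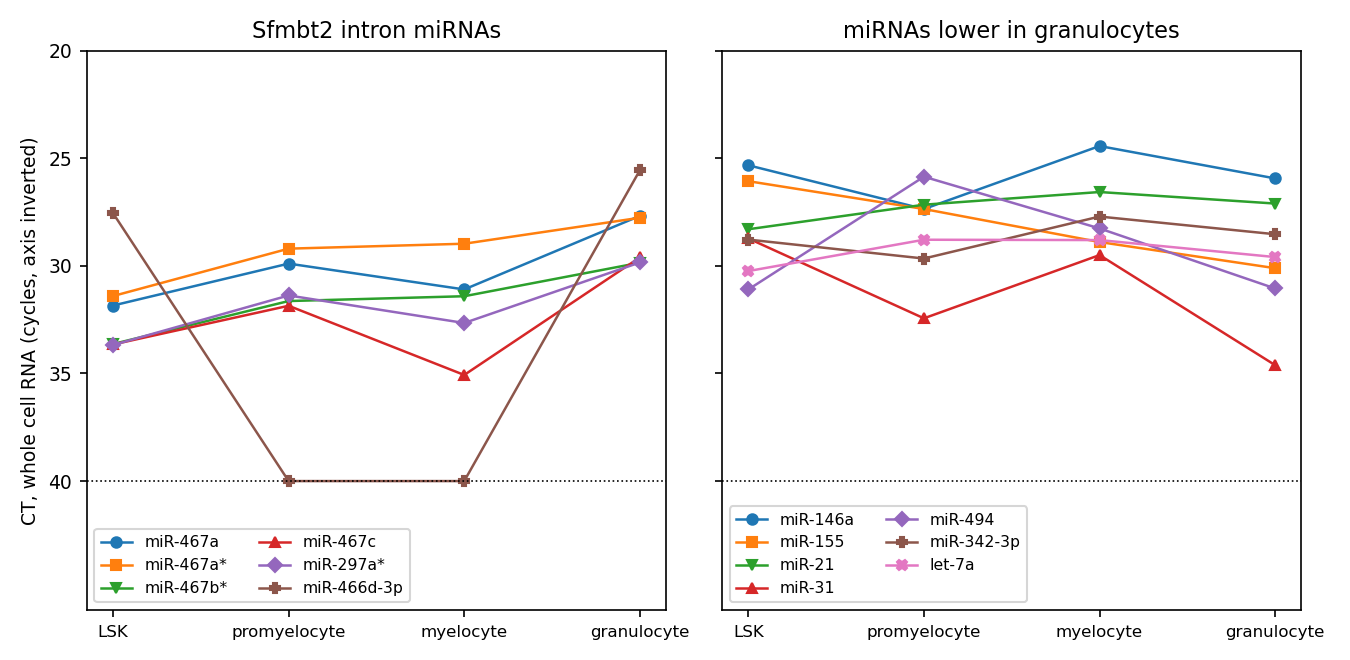
Whole cell CT (vertical axis, cycles, inverted so that higher points mean more template) at the 4 stages, 1 sample each. Left, the 6 Sfmbt2 intron miRNAs, each with its lowest CT in granulocytes; right, 7 miRNAs with a log2 change of -0.98 or lower in the last step, of which miR-31 reached a CT of 34.61; the dotted line at 40 marks an undetermined reaction.

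The other higher miRNAs came from several families. miR-135b was at 28.69 in myelocytes and 26.67 in granulocytes, a change of 1.58, and in cytoplasmic RNA at 29.30 and 26.42. Its relative miR-135a was at 27.69 and 26.62, a change of 0.64. Both paralogs were higher in granulocytes, and only miR-135b passed 2-fold. miR-10b, encoded in the HoxD cluster, was at 28.96 and 27.45, a change of 1.07. miR-574-3p was at 27.58 and 26.08, a change of 1.06, and was one of the 4 higher miRNAs under 30 in both samples, with miR-10b, miR-135b and miR-699. miR-10b and miR-574-3p both dropped under 2-fold at 1.9-fold per cycle (0.99 and 0.98) and with 2 of the 3 control assays alone.

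Both arms of the miR-139 hairpin lay above 0. miR-139-3p was at 31.28 in myelocytes and 28.90 in granulocytes, a change of 1.94, and its partner miR-139-5p, the arm of earlier CT, at 22.56 and 21.21, a change of 0.91. The arms had the same direction in whole cell RNA, but in cytoplasmic RNA miR-139-3p was at 29.56 and 29.62, a centred change of -0.16, against 0.70 for miR-139-5p. miR-365 was at 30.44 and 28.50 (a change of 1.5), miR-28 at 31.68 and 29.94 (1.30) and miR-744* at 30.99 and 29.38 (1.18). All these except miR-139-5p were under 30 in granulocytes alone.

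miR-699 had a CT of 29.65 in myelocytes and 27.10 in granulocytes, a change of 2.11. In cytoplasmic RNA it ran the other way, 26.17 and 27.17, a centred change of -1.12. Its whole cell myelocyte CT was thus later than the cytoplasmic one by more than 3 cycles, a gap not seen in granulocytes. miR-699 is one of 6 listed entries withdrawn from miRBase, 4 of them members. Of the others miR-805 was at least 2-fold lower, and miR-720 and miR-801 changed by -0.35 and -0.19.

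Among the lower miRNAs miR-31 had the largest difference. Its CT was 29.50 in myelocytes and 34.61 in granulocytes, a change of -5.55 or 47.0-fold. It met the CT limit in myelocytes alone, so the limit fixed the order of its CTs, and the fold rests on a late granulocyte signal. The cytoplasmic CTs were 29.33 and 34.25, and in nuclear RNA it was at 31.65 in myelocytes and undetermined in granulocytes. In LSK cells miR-31 was at 28.72 and in promyelocytes at 32.44, so its level went down, up and down along the 4 samples. miR-494 was at 28.26 and 31.05, a change of -3.23, and it too met the CT limit in myelocytes alone. Its cytoplasmic change was smaller, 28.44 against 29.61, or -1.28 after centring. In promyelocytes miR-494 had a CT of 25.85, its lowest of the 4 stages.

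Of the members known from inflammatory signalling, miR-146a and miR-155 were at least 2-fold lower. miR-146a, a brake on Toll-like receptor signalling through Traf6 and Irak1, was at 24.43 in myelocytes and 25.93 in granulocytes, a change of -1.94. miR-155, which targets Inpp5d and other regulators, was at 28.89 and 30.11, a change of -1.66. It met the CT limit in myelocytes alone, so the limit fixed the order of its CTs. miR-21 was at 26.57 and 27.10, a change of -0.98, just within 2-fold. Of 7 miRNAs listed 6 were named and 3 were members; 2 of these were at least 2-fold lower and none higher, and the median was -1.66.

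In cytoplasmic RNA miR-146a was at 25.87 and 27.23, and miR-155 at 29.49 and 31.18, centred changes of -1.47 and -1.80. miR-21 was at 27.42 and 27.62, a centred change of -0.32. The nuclear CT of miR-146a ran from 30.89 to 29.88 and had the opposite order, but nuclear CTs were lower in granulocytes for most members, with a median difference of 1.30 cycles over the 37 under 30 in both samples. Among the listed miRNAs above the CT limit, miR-147 was at 32.23 and 31.97 in whole cells, a scaled change of -0.18. miR-132 was undetermined in myelocytes and at 33.33 in granulocytes, and miR-9 was at 37.70 and 35.09, a change of 2.17. As miR-132 and miR-9, both late signals, lay above 0, the direction of the 3 members was not that of the whole list. Along the stages miR-155 had the CTs 26.06, 27.36, 28.89 and 30.11, later at every step, whereas miR-146a was lowest in CT in myelocytes after 25.32 in LSK cells and 27.36 in promyelocytes.

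miR-342-3p was at 27.71 in myelocytes and 28.53 in granulocytes, a change of -1.26. In cytoplasmic RNA it was at 28.23 and 29.32. miR-805 was at 28.85 and 29.92, a change of -1.51, with 28.60 and 30.85 in cytoplasmic RNA. Both were lower in granulocytes in both kinds of RNA. miR-706 was at 28.51 and 29.22, a change of -1.15, but its cytoplasmic CTs were 28.70 and 27.19, a centred change of 1.40. Of the 3, only miR-805 was past 2-fold under every scaling.

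Members of the let-7 family, known for restraining Lin28, Myc and Ras genes in differentiating cells, leaned lower. let-7a was at 28.80 in myelocytes and 29.59 in granulocytes, a change of -1.23. let-7d was at 27.77 and 28.13 (-0.79), let-7c at 28.42 and 28.61 (-0.62), let-7i at 25.72 and 25.87 (-0.59) and let-7e at 25.72 and 25.69 (-0.41). let-7g alone was above 0, at 24.54 and 23.97 with a change of 0.14. Thus 1 of 6 was at least 2-fold lower and none higher, with a median of -0.61. The median stayed below 0 under every scaling, from -0.81 to -0.17, and let-7a dropped within 2-fold without scaling (-0.79). In cytoplasmic RNA let-7a was at 29.16 and 29.36, a centred change of -0.31, and the family median was -0.44.

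The miR-17-92 cluster, a polycistron known for driving proliferation under Myc, had all 6 members below 0 and none past 2-fold. miR-20a was at 22.69 in myelocytes and 23.19 in granulocytes, a change of -0.94, and miR-18a at 27.99 and 28.16, a change of -0.61. The other 4, miR-17, miR-19a, miR-19b and miR-92a, lay between -0.29 and -0.16. The cluster median of -0.28 took the values -0.49 to 0.16 under the scalings run, so its sign depended on the constant. The same was true of the related miR-106b-25 members miR-106b, miR-93 and miR-25 (changes of -0.10, -0.26 and -0.16, median -0.16, from -0.37 to 0.28) and miR-106a-363 members (median -0.35, from -0.55 to 0.09).

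Grouped by seed, the 6 miRNAs with AAAGUGC had changes from -0.94 for miR-20a to -0.10 for miR-106b, a median of -0.24. Among the 92 members with a RefSeq sequence, 12 seeds were shared by at least 2 miRNAs, covering 36. The other 28 members, miR-30b, miR-30d, miR-301b and miR-135b among them, entered no seed group. In 8 of the 12 groups every miRNA grouped had the same sign, and the let-7 group was the one that held a miRNA past 2-fold. All of these 8 but AAAGUGC were pairs, and no share was taken for miRNAs of unlike seed. The signs also depended on the constant. Without scaling AAAGUGC was mixed, with miR-20a at -0.50 and miR-17 at 0.28, as was UCACAGU, with miR-27b at -0.355 and miR-27a at 0.37. The widest span within a seed group was 1.37 on the log2 scale, in let-7, and the median span was 0.56. Several of these groups are also clusters, so their members can come from 1 transcript. Across the 92 members with a sequence, the change had a Pearson's r of -0.004 with the GC share of the mature miRNA; these points share both samples and the scaling constant.

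The miR-30, miR-26 and miR-29 families lay mostly above 0, with every member within 2-fold. The miR-30 family had changes of -0.01 for miR-30a, 0.35 for miR-30e, 0.36 for miR-30d and 0.69 for both miR-30c and miR-30b. Without scaling miR-30b and miR-30c passed 2-fold, both at 1.13. The family median was 0.36 in whole cell RNA and -0.03 in cytoplasmic RNA. miR-26a was at 23.27 and 22.54 (0.30) and miR-26b at 23.65 and 22.85 (0.36), with cytoplasmic changes of 0.54 and 0.71. miR-29a and miR-29c, which are known to target collagen and DNA methyltransferase mRNAs, changed by 0.04 and 0.55. Their relative miR-29b, above the CT limit at 30.81 and 31.60, went the other way with a change of -1.23. The medians over the members of these families were above 0 under every scaling. They ran from 0.15 to 0.80 for miR-30, from 0.12 to 0.77 for miR-26 and from 0.09 to 0.73 for miR-29.

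Within the miR-15/16 family miR-195 stood highest, at 25.92 in myelocytes and 24.59 in granulocytes, a change of 0.90. miR-16, miR-15a and miR-15b changed by 0.32, 0.13 and 0.10, miR-322 by -0.05 and miR-503 by -0.49. The family median was 0.12. In cytoplasmic RNA miR-195 was at 26.07 and 24.31, a centred change of 1.65, the largest of the family there as well. Mir322 and Mir503 are neighbours in RefSeq with no gene between, as are Mir192 and Mir194-2, whose miRNAs miR-192 and miR-194 changed by 0.03 and 0.88. In cytoplasmic RNA miR-192 and miR-194 changed by 0.21 and 0.12, and miR-322 and miR-503 by 0.03 and 0.40, so the gaps in whole cell RNA were not repeated there.

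The members of the small families were all within 2-fold. miR-221 and miR-222, known for restraining Kit, changed by -0.06 and -0.24, and the related miR-130b, miR-301b and miR-301a by -0.27, -0.14 and 0.01. Among the miR-23, miR-24 and miR-27 members, miR-24 changed by 0.59, miR-27a by -0.06 and miR-27b by -0.79. miR-101b was at 27.79 and 27.89, a change of -0.55. The Clcn5 intron miRNAs miR-532-5p and miR-532-3p changed by 0.16 and -0.23. Of 4 further miRNAs that were among the study's 6 candidates for a nuclear location, miR-706 passed 2-fold, while miR-709, miR-690 and miR-135a* changed by 0.16, -0.51 and 0.11; miR-467a* and miR-142-3p, the other candidates, are given with their own groups.

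**Figure D4:**
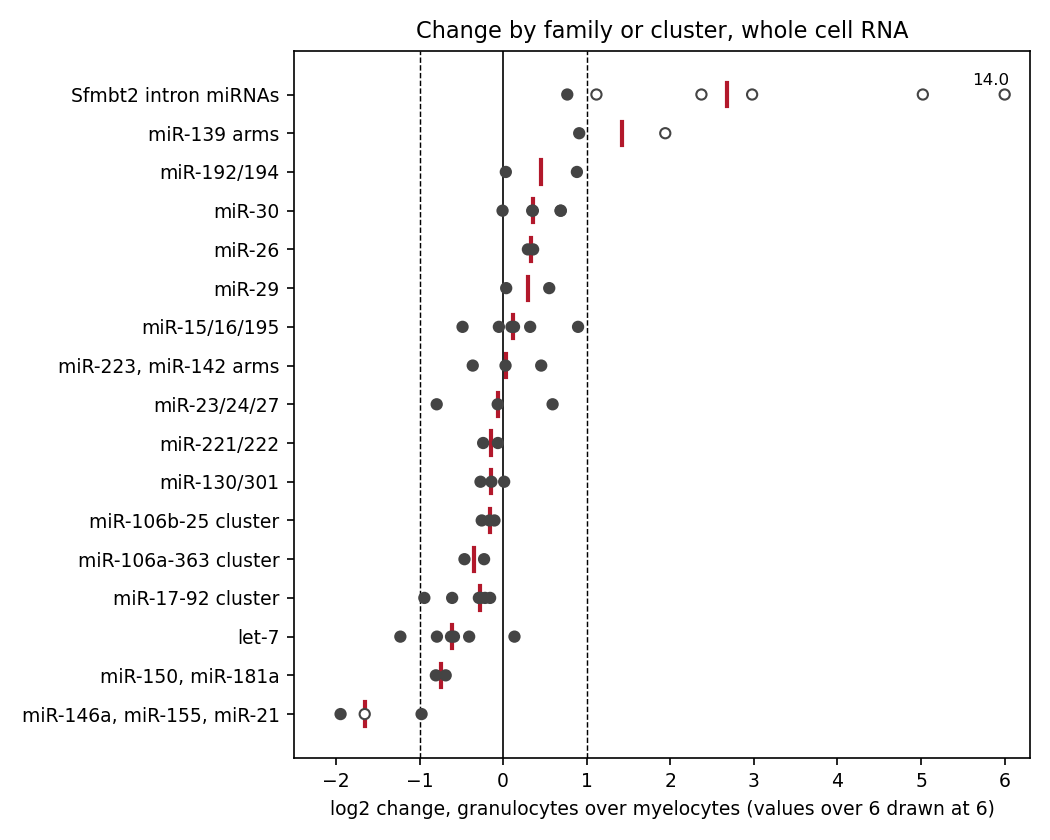
Log2 change from myelocytes to granulocytes in whole cell RNA (horizontal axis) for the members of 17 families, clusters or lists, 1 point per miRNA; open points had a CT under 30 in 1 sample only, red bars are medians and dashed lines mark 2-fold. The Sfmbt2 intron miRNAs lie highest, with miR-466d-3p at 14.0 drawn at 6, and the list of miR-146a, miR-155 and miR-21 has the lowest median.

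Other miRNAs outside these families were within 2-fold. miR-140 was at 24.35 in myelocytes and 23.01 in granulocytes, a change of 0.90. miR-22 was at 28.88 and 27.48, a change of 0.96, after 34.21 in LSK cells and 32.26 in promyelocytes. Both also lay above 0 in cytoplasmic RNA, with centred changes of 0.49 and 0.95. miR-340-3p was at 27.11 and 25.89, a change of 0.79. On the other side miR-296-5p was at 28.92 and 29.27 (-0.79) and miR-877* at 28.88 and 29.27 (-0.83), with cytoplasmic changes of -0.25 and -0.81. Of the 120 members 66 lay above 0 and 54 below.

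Cell type markers were read in the same way. The miRNAs of the myeloid list, miR-223, miR-142-3p and miR-142-5p, were all members, with changes of 0.46, 0.03 and -0.36. Their summed level in granulocytes was 1.35 times that in myelocytes, a sum in which the assay of earliest CT weighs most. The lymphoid markers miR-150 and miR-181a, 2 of 5 listed that could be named, were detected in both samples. miR-150 was at 25.60 and 25.84 (-0.69) and miR-181a at 29.22 and 29.59 (-0.80), a summed level in granulocytes of 0.617 of that in myelocytes. Their cytoplasmic changes were -1.25 and -0.46. This moves in the same direction as miR-146a, miR-155 and miR-342-3p, which lymphocytes also express, and its part in those results was not tested.

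Of the 3 erythroid markers only miR-486 was named, at 31.46 and 31.74. Of 6 LSK markers all were named, 2 were members, and their summed level in granulocytes was 0.934 of that in myelocytes. miR-126-3p was at 27.62 and 27.02 (0.16) and miR-126-5p at 29.33 and 29.71 (-0.82). In LSK cells miR-126-3p had a CT of 24.34, so the marker of stem and progenitor cells was later in both mature samples. Also from the stem cell list, miR-196b was above the CT limit at 31.31 and 33.23, and miR-125b-5p at 31.08 and 32.05. So was miR-130a at 31.89 and 32.57, a change of -1.12. Others there went the other way, miR-125a-5p at 35.41 and 34.12 (0.85) and miR-99b at 36.77 and 35.32 (1.02), so the list did not share 1 direction. Of the 5 named epithelial markers miR-200c was the one member, at 28.84 and 27.77 (0.62). The others did not share 1 direction, with changes of 2.85 for miR-200b, -0.10 for miR-203, -1.80 for miR-429 and -2.84 for miR-182, and the summed level of 1.41 times that in myelocytes was mainly miR-200c. Of the 5 named endothelial and stromal markers, 5 were detected in myelocytes and 4 in granulocytes, with a summed level of 0.961 that was mainly miR-126-3p. The other 4 had changes below 0: miR-126-5p, miR-145 (-0.60), miR-199a-3p (-0.65) and miR-143, at 34.52 in myelocytes and undetermined in granulocytes.

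Both arms of a hairpin were members in 22 cases. The 2 arms differed in their change by a median of 0.42 on the log2 scale, with a range from 0.07 to 2.21, and by less than 1 in 19 of the 22. The 3 wider pairs were miR-467a with miR-467a* (2.98 and 0.77), miR-139-3p with miR-139-5p (1.94 and 0.91) and miR-322* with miR-322 (0.99 and -0.05). In 17 of the 22 pairs the arms were on different cards, so arm and card cannot be told apart in those. The 22 members named as star strands had a median change of 0.47, and -0.33 in cytoplasmic RNA.

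The same step in cytoplasmic RNA served as a second reading from other samples. Of the 13 higher miRNAs 12 were detected there, 10 had the same direction and 7 were past 2-fold the same way (miR-467c, miR-467a, miR-297a*, miR-135b, miR-467b*, miR-28 and miR-574-3p). Of the 8 lower miRNAs all were detected, 7 had the same direction and 6 were past 2-fold (miR-31, miR-805, miR-155, miR-146a, miR-494 and miR-342-3p). The background in cytoplasmic RNA was 10% of the 120 members higher and 10% lower by 2-fold. miR-699, miR-706 and miR-139-3p had the opposite direction. In nuclear RNA, after centring, 26.5% of the 117 members detected were at least 2-fold higher and 9.4% lower. Of the 13 higher miRNAs 10 were detected there, 6 with the same direction and 4 past 2-fold, and the other 4 with the opposite one (miR-574-3p, miR-467b*, miR-699 and miR-297a*), 2 of them past 2-fold. All 8 lower miRNAs were detected there, 6 with the same direction and 2 past 2-fold, and miR-805 and let-7a had the opposite one. This rests on the centring, since without it 2 of the 8 had the same direction.

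Agreement between the fractions was uneven across the cards. Among the members under 30 in both samples of both fractions, the whole cell and cytoplasmic changes had a Pearson's r of 0.81 and Spearman's rho of 0.79 over 73 miRNAs on card A. Over 23 miRNAs on card B they were -0.16 and 0.02, and without miR-699 and miR-706 they were 0.34 and 0.29 over 21. The points share the samples, the card run and the centring, so these are descriptions. The median unscaled change on card B was 0.46 cycles in whole cell and -0.38 in cytoplasmic RNA, against 0.47 and 0.23 on card A. The cards therefore lay together in whole cell RNA and apart in cytoplasmic RNA, and the 22 star strands, all on card B, carry that offset. In nuclear RNA 37 members could be compared, with an r of 0.20 and a rho of 0.62. They were 0.67 and 0.69 over 29 on card A and -0.62 and 0.19 over 8 on card B.

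**Figure D5:**
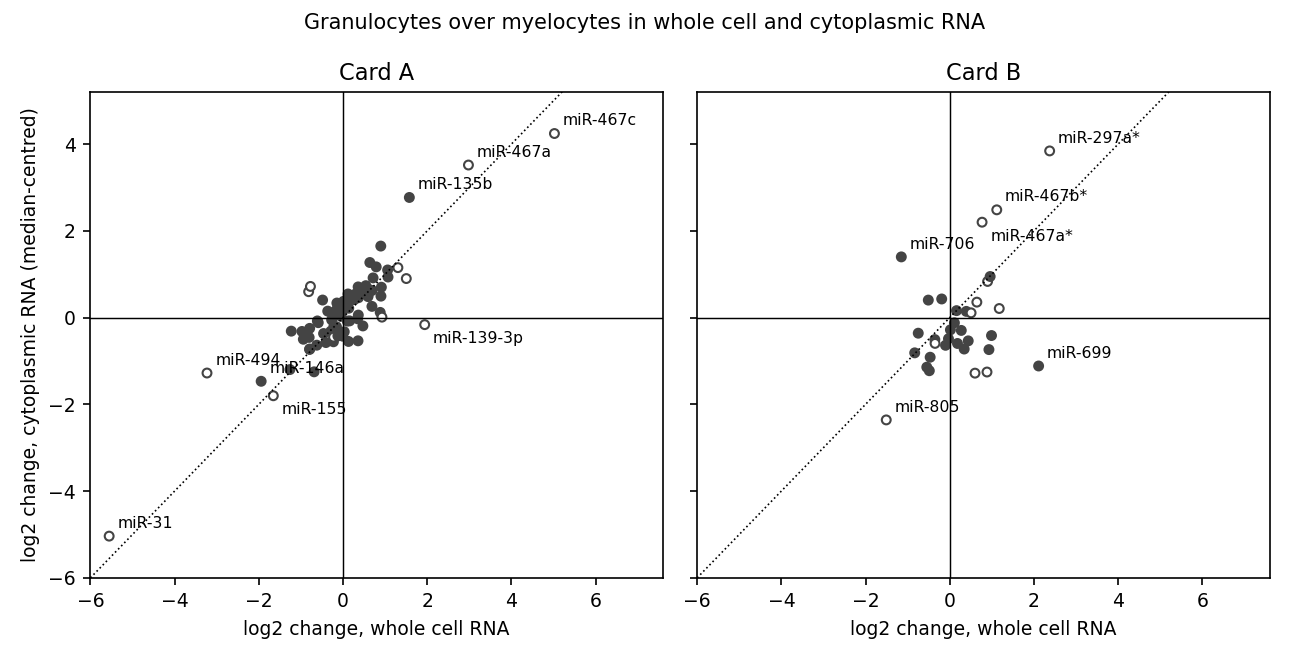
Log2 change from myelocytes to granulocytes in whole cell RNA (horizontal axis) and in cytoplasmic RNA (vertical axis), 1 point per miRNA by card, without miR-466d-3p. Cytoplasmic changes are centred on the median of the members under 30 in both cytoplasmic samples. Filled points had a CT under 30 in all 4 samples and the dotted line marks equality; card A follows the line, while on card B miR-699 and miR-706 lie in opposite quadrants.

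The size of the gap between the fractions gave the only measure of how closely a change repeats. For members under 30 throughout, the whole cell change was centred on the median of these miRNAs (0.46 cycles). The cytoplasmic change was centred on the median of all members under 30 in both cytoplasmic samples. The median gap between these changes was 0.22 in 31 miRNAs with a mean CT under 25. It was 0.40 in 38 from 25 to 28 and 0.31 in 27 of 28 or more. In the same order, the largest gap within each class was 0.93 for miR-690, 1.65 for miR-24-2* and 3.20 for miR-699. The gap also contains any true difference between the cytoplasm and the whole cell, which cannot be told apart from measurement error.

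Compared with the earlier steps, the last one was the least changed by count. For each step the members were chosen in the same way from its own pair of samples. At least 2-fold differences made up 51.0% of 104 miRNAs from LSK cells to promyelocytes (35 higher and 18 lower) and 54.5% of 112 from promyelocytes to myelocytes (47 and 14). From myelocytes to granulocytes they made up 17.5% of 120. With 1 sample per stage this difference was not tested. miR-223 changed by 4.25, 2.16 and 0.46 over the 3 steps and miR-139-5p by 0.70, 4.89 and 0.91. miR-135a changed by 7.19, 4.88 and 0.64, the first with its undetermined reaction in LSK cells set at 40. The steps share the middle samples, so their values are not independent.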

How the data were processed

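The authors reverse transcribed RNA with Megaplex rodent primers, ran TaqMan rodent miRNA cards A and B on an ABI 7900HT and called CTs with SDS 2.3 and RQ Manager. The deposited values are other than counts: raw CT in cycles, not normalized, with undetermined reactions at 40. Cards A and B hold 377 and 216 assays here. Assays are numbered, so they were named where their CTs uniquely matched the study's supplementary lists: 246 by fraction CTs within 0.0005 and 23 by whole cell differences within 0.002, without conflict. The whole cell differences were first put on the scale of the printed values by a linear fit over assays already named. The names carry no check beyond that match. The 3 scaling assays, the last of card B, are unnamed here.

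All samples and columns were assigned; 1 sample per group left no test, including the signed rank test named in the methods. The precision of a CT is unknown, as each assay had 1 reaction. The text names the 12 largest rises and 12 largest falls among members under 30 in both samples, every member undetermined in 1 sample, the 5 lowest CTs per sample and the members of the lists; miR-31, miR-494, miR-365, miR-28 and miR-744*, past 2-fold, and miR-135a were added after their values were seen. Members and lists were chosen with earlier results of these data known. Cytoplasmic and nuclear changes were centred on the median of the members under 30 in both samples of that fraction. Alternatives changed the scaling, CT limit, fold limit, fold per cycle, value of undetermined reactions and cards. The procedure was tested on simulated data. Scripts ran in Python 3.11.15 with pandas 2.3.3 and numpy 2.4.6, correlations in scipy 1.17.1 and plots in matplotlib 3.10.9; RefSeq (GRCm38.p6) gave sequences and gene order only. No coordinates are given, as the table names no genome build. LSK cells and promyelocytes were used only for context.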

Additional observations from a re-analysis of the deposited data

Results flagged for a closer look

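Whole cell and cytoplasmic RNA gave opposite changes past 2-fold from myelocytes to granulocytes for 2 miRNAs, both on card B: miR-699 (2.11 in whole cell RNA and -1.12 in cytoplasmic RNA) and miR-706 (-1.15 and 1.40). Centred within card B, the cytoplasmic change of miR-699 was -0.63, within 2-fold, and without scaling the whole cell change of miR-706 was -0.71, also within 2-fold. With 1 sample each, the difference was not tested.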

How the results depend on the processing

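With 1 sample per stage, no replicate could be left out, and no paired analysis was possible because each group has 1 sample. The counts of miRNAs at least 2-fold higher and lower in granulocytes, 13 and 8, were 34 and 5 without scaling. They were 6 and 2 at a CT under 28, 41 and 30 at a CT under 35, and 4 and 5 with a CT under 30 in both samples, while a CT under 32 gave 19 and 19. A limit of 1.5-fold gave 34 and 22, and 3-fold gave 6 and 4. Card A alone gave 8 and 6, and card B alone 5 and 2. Scaling on each of the 3 control assays alone, chosen after seeing the data, gave 28 and 5, 10 and 10, and 9 and 16. Scaling on the mean or median CT of the named assays or within each card, undetermined reactions at 35 and counting unnamed assays too left both counts at 13 and 8, and 1.9-fold per cycle gave 11 and 8. The median change stayed within 2-fold under all of these, from -0.14 to 0.51, so its sign depended on the control assay. The Hox cluster list, miR-10b alone at 1.07, had a median of -0.65 at a CT under 32 and under 35, where miR-196b joined it.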
